A study of Mus musculus with 48 samples.

Results

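The comparison described here is the change in the effect of chronic intermittent ethanol (CIE) on hippocampal gene expression between 8 h and 0 h after the last ethanol exposure, that is, the difference between CIE and control (Ctrl) mice at 8 h minus the same difference at 0 h. Its members are the 24 arrays, of 48 in the series, that the sample titles place in 4 groups of 6 mice: CIE at 8 h, Ctrl at 8 h, CIE at 0 h and Ctrl at 0 h. All 45037 probe sets were tested, and 18193 genes were each represented by 1 probe set. The samples were chosen by their titles alone and no measured value entered the choice.

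The animals were adult male C57BL/6J mice, and RNA from the hippocampus of each mouse was hybridized to 1 Affymetrix mouse genome array. CIE mice were kept in inhalation chambers with ethanol vapor at 10 to 13 mg per liter for 4 daily sessions of 16 h, then had 7 days free of ethanol, through 4 rounds in all, and each round opened with an injection of ethanol (1.6 g/kg) and pyrazole (1 mmol/kg), a blocker of alcohol dehydrogenase. Ctrl mice breathed air in the same kind of chamber and received saline with the same pyrazole, so that every mouse in the comparison carried pyrazole and none was free of injections. Mice killed at 0 h came directly out of the chambers, and mice killed at 8 h were 8 h into withdrawal. Different mice were used at each time, and the hours of the light cycle at which they were killed were not given in the sources used here, so that time since exposure and time of day cannot be told apart within one treatment.

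Removal of ethanol after long exposure is followed by a hyperexcitable state, in which neurons that had adapted to a depressant fire more. Active neurons switch on immediate early genes such as Fos within minutes, secretory cells under load raise the chaperones of the endoplasmic reticulum (ER), and clock genes such as Dbp cycle through the day in most tissues, hippocampus included. Corticosteroids, which rise with stress and with ethanol, and interferons each have target genes of their own.

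The CIE effect changed between 8 h and 0 h at 15 of 45037 probe sets, 0.0333% of those tested (limma, Benjamini-Hochberg adjusted p of 0.01 or less), with 11 higher at 8 h (0.0244%) and 4 lower (0.00888%). Counted by gene, 6 of 18193 changed (0.033%): Fos, Pik3cd and Manf were higher (0.0165% of genes), and Dbp, R74862 and Rbm33 were lower (0.0165%). The largest change was in Fos, whose level was lower in CIE than in Ctrl mice at 0 h and on average higher at 8 h. Dbp went the other way, high in CIE mice at 0 h. The count of 15 lay between 8 and 26 when each of the 24 mice was left out in turn, and was 3 when the 24 arrays of the comparison were fitted alone. These 3 were Dbp (1438211_s_at), Depp1 and Cdc27. Fos was not called in that fit (adjusted p = 0.0198). At an adjusted p of 0.05 or less there were 169 probe sets (0.375%) and 85 genes (0.467%), of which 29 were higher (0.159%) and 56 lower (0.308%). By contrast CIE and Ctrl mice differed at 420 genes at 8 h (2.31%) and at 299 genes at 0 h (1.64%), counts far above the 6 genes of the direct test.

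Of the 420 genes called at 8 h and the 299 called at 0 h, 59 were called at both times. All 59 moved the same way, none of them with a called change in effect. There were 361 genes called at 8 h only, of which 2 passed the test of the change, and 240 called at 0 h only, of which 4 passed it. Passing the threshold at one time and missing it at the other was thus no test of the change. Over the 18193 genes the effects at the 2 times had a Pearson r of 0.43 and a Spearman rho of 0.28, across genes, which are not independent replicates. The median SE of the change was 0.12 on the log2 scale over all probe sets, against 0.08 for the CIE effect at 8 h alone. The median change over all genes was -0.04 on the log2 scale, and 39.6% of genes lay above 0.

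**Figure D1:**
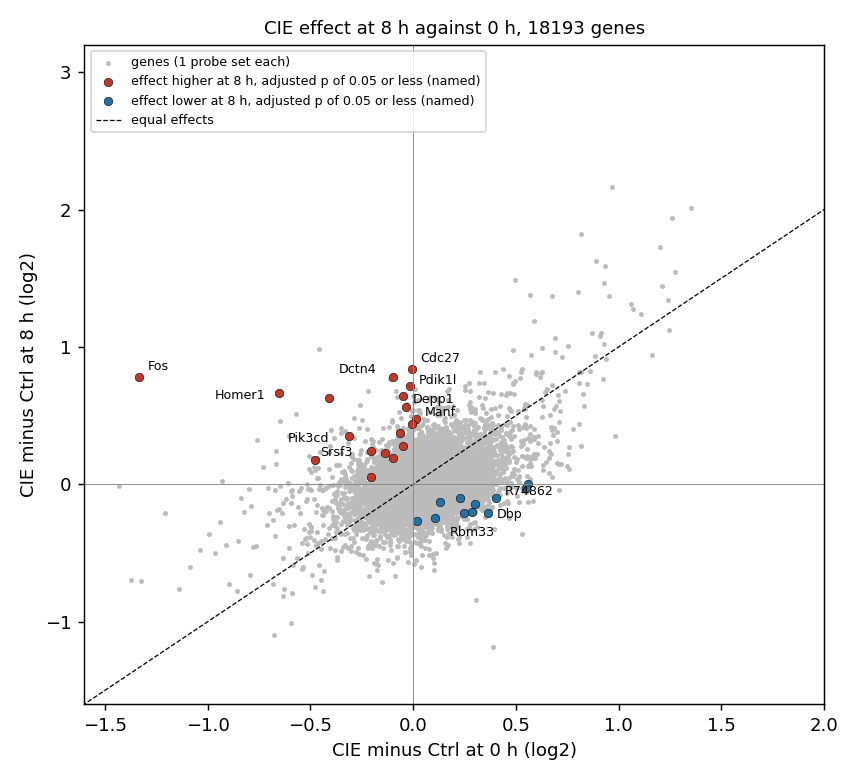
Each grey point is 1 of 18193 genes, with the CIE minus Ctrl difference at 8 h on the vertical axis and that at 0 h on the horizontal axis (log2), and red and blue points are the named probe sets with an adjusted p of 0.05 or less for the change, labelled at 0.01 or less where a symbol was known. Fos lies farthest from the dashed line of equal effects, with 0.78 at 8 h and -1.33 at 0 h.

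Among the 15 probe sets, 9 were called in the CIE to Ctrl comparison at 8 h only, 5 at 0 h only, 1 at neither time and 0 at both, where 2.15% of all probe sets were called at 8 h and 1.92% at 0 h. The sign of the CIE effect was opposite at the 2 times in 13 of the 15. In the CIE mice, 14 of the 15 differed between 8 h and 0 h (adjusted p of 0.01 or less), where 2.86% of all probe sets did, and in the Ctrl mice 1 did, where 1.12% of all probe sets did. The CIE groups are part of the contrast that chose these probe sets, and these counts are a description. None of the 15 was called at 72 h or at 7 days, where the largest CIE effect among them was 0.39 and 0.36 on the log2 scale.

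Fos encodes a subunit of the AP-1 transcription factor and is a standard marker of recent neuronal activity. Its log2 intensity (lowest, median and highest of 6 mice) was 8.71, 9.21 and 9.69 in CIE mice and 7.67, 8.13 and 9.33 in Ctrl mice at 8 h. At 0 h it was 6.94, 7.49 and 7.83 in CIE mice and 8.43, 8.71 and 9.27 in Ctrl mice. The 0 h groups did not overlap, every CIE mouse lying below every Ctrl mouse, while at 8 h CIE mice were higher in 30 of the 36 pairs of mice. The CIE effect was thus 0.78 at 8 h (adjusted p = 0.0257) and -1.33 at 0 h (adjusted p = 0.00024), a level 0.397 times that of Ctrl mice at 0 h. The change was 2.11 ± 0.31 on the log2 scale (SE; 95% interval 1.49 to 2.74; adjusted p = 0.000495).

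Homer1 encodes a scaffold protein of the postsynaptic density, and one of its short forms is an immediate early gene product. At probe set 1436387_at its log2 intensity was 9.67, 10.61 and 10.86 (lowest, median, highest) in CIE mice and 9.43, 9.67 and 10.41 in Ctrl mice at 8 h. At 0 h it was 8.03, 8.39 and 8.62 in CIE mice and 8.54, 8.96 and 9.76 in Ctrl mice. The groups overlapped at both times, with CIE mice higher in 32 of 36 pairs at 8 h and in 1 of 36 at 0 h. The change in effect was 1.32 ± 0.24 (adjusted p = 0.00505), from 0.66 at 8 h and -0.65 at 0 h, neither of which passed 0.01 alone. Homer1 was also the member of the 15 that differed in Ctrl mice, by 0.77 between 8 h and 0 h (adjusted p = 0.0055), against 2.09 in CIE mice. Of 5 other Homer1 probe sets none was called and 3 had the same sign, with changes between -0.38 and 0.36. The Homer1 call held in 14 of the 24 fits that left out 1 mouse.

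The list of 41 measured immediate early genes held 1 called gene, Fos, against 0.033% of all genes. The change lay above 0 for 32 of the 41, with a median of 0.21 beside -0.04 over all genes, and the median CIE effect was 0.18 at 8 h and -0.06 at 0 h. Trib1, a pseudokinase gene, had a change of 0.55 ± 0.13 (adjusted p = 0.0438), and Arc, which encodes a synaptic protein of the activity response, 1.11 ± 0.28 (adjusted p = 0.0533). Egr2, a zinc finger transcription factor gene, had 1.45 ± 0.42 (adjusted p = 0.107). None of these passed 0.01.

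In CIE mice alone, 11 of the 41 were higher at 8 h than at 0 h, where 1.71% of all genes were, among them Fos by 1.76, Egr2 by 1.64, Arc by 1.25, Egr1 by 1.05 and Npas4 by 1.02. Over all genes, 2.97% differed between 8 h and 0 h in CIE mice. In Ctrl mice 0 of the 41 differed (adjusted p of 0.01 or less), where 0.473% of all genes did, and the same genes had values of -0.36 for Fos, 0.20 for Egr2, 0.14 for Arc, 0.29 for Egr1 and 0.29 for Npas4. Against Ctrl mice of the same time, 3 members were higher in CIE mice at 8 h (Trib1, Ier3 and Maff; 1.65% of all genes were higher) and 1, Fos, was lower at 0 h (0.374% of all genes were lower). Fos, Egr2, Arc, Egr1, Npas4 and Ier3 each had a positive CIE effect at 8 h and a negative one at 0 h. Jun, Klf4, Btg2 and Gadd45g each went the other way, and Jun had the lowest change of the list, -0.67. The mean log2 intensity of Jun at 8 h was 10.18 (CIE) against 10.75 (Ctrl). At 0 h its means were 10.83 (CIE) against 10.73 (Ctrl). Homer1 was counted in the list by another probe set, of higher mean level, with a change of 0.12 (adjusted p = 0.854). Its called probe set, 1436387_at, which was not counted, differed between 8 h and 0 h in Ctrl mice by 0.77 (adjusted p = 0.0055).

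**Figure D2:**
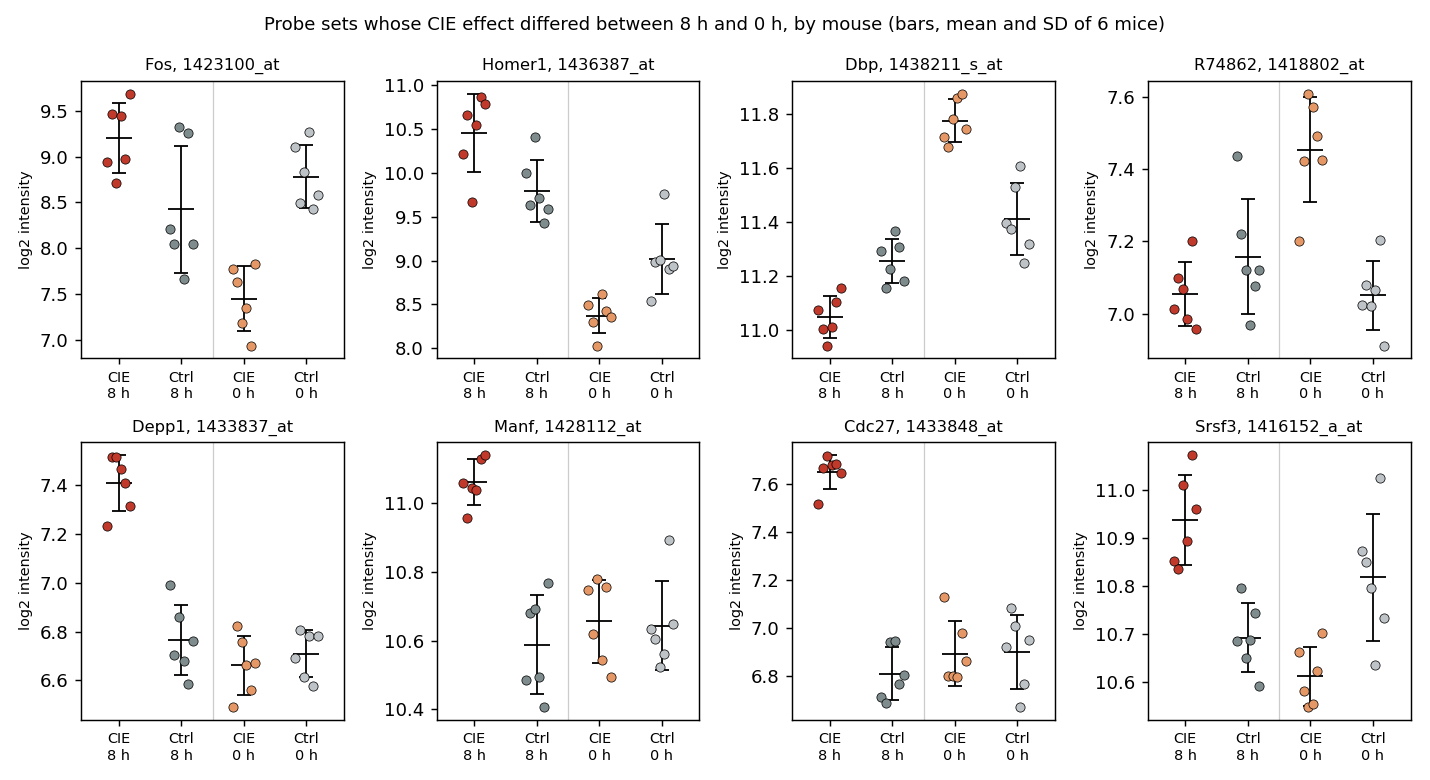
Log2 intensity of 8 of the 15 probe sets in each mouse, by group, with the mean and SD of 6 mice. Fos and Homer1 were lowest in CIE mice at 0 h, Dbp and R74862 were highest there, and Depp1, Manf and Cdc27 were high in CIE mice at 8 h alone (vertical axes do not start at 0).

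The promoters of the immediate early genes were read for the core of the cyclic AMP response element, the letters TGACG on either strand, to which the activity-regulated factor CREB binds in its longer form. The 250 bases before the start of transcription held it in 21 of the 32 members with a RefSeq promoter, against 19.8% of all 27025 genes. The AP-1 site, TGANTCA on either strand, stood in 1 of the same 32, Csrnp1, against 7.82% of all genes. The promoters of Fos and of Homer1 are shown since these 2 of the immediate early genes had a called probe set, a choice made after the values were seen, with each TGACG in capitals (RefSeq, GRCm38.p6, 5′ to 3′). The Fos window held 2 copies, starting 129 and 66 bases before the start site, and the upstream one of the 2 Homer1 promoters held 3, starting 56, 40 and 14 bases before it.
Fos (chr12:85473640-85473889, plus strand): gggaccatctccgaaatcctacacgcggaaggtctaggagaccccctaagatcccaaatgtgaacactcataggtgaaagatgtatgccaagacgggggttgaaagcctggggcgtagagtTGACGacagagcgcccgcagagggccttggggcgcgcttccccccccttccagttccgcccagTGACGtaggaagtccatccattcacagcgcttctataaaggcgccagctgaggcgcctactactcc
Homer1 (chr13:93303507-93303756, plus strand): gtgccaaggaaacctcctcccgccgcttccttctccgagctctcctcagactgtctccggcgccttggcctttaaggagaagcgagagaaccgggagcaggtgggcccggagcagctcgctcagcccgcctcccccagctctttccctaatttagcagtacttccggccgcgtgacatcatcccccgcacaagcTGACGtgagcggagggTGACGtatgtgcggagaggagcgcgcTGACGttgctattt

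Dbp encodes a transcription factor at the output of the circadian clock. The CIE effect on it was lower at 8 h than at 0 h at both of its probe sets. At 1438211_s_at its log2 intensity was 10.94, 11.04 and 11.15 (lowest, median, highest) in CIE mice and 11.15, 11.26 and 11.37 in Ctrl mice at 8 h. At 0 h it was 11.68, 11.76 and 11.88 in CIE mice and 11.25, 11.38 and 11.61 in Ctrl mice. Every CIE mouse lay above every Ctrl mouse at 0 h, and at 8 h CIE mice were lower in 35 of 36 pairs. The CIE effect was -0.21 at 8 h (adjusted p = 0.0143) and 0.36 at 0 h (adjusted p = 4.82e-05), a change of -0.57 ± 0.08 (95% interval -0.72 to -0.42; adjusted p = 8.96e-05). The other Dbp probe set, 1418174_at, gave a change of -0.56 ± 0.09 (adjusted p = 0.0012), with a CIE effect of 0.00 at 8 h and 0.56 at 0 h.

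Among 24 clock and clock output genes Dbp was the 1 gene called, against 0.033% of all genes. The change lay above 0 for 9 of the 24, or 37.5%, close to the 39.6% of all genes, with a median of -0.09 beside -0.04 over all genes. Ciart, a repressor of the clock, came next with a change of -0.57 ± 0.12 (adjusted p = 0.0284). Its log2 intensity was 6.90, 7.26 and 7.33 in CIE mice and 6.90, 6.99 and 7.39 in Ctrl mice at 8 h, and 8.02, 8.24 and 8.40 in CIE mice and 7.33, 7.45 and 7.83 in Ctrl mice at 0 h. The groups overlapped at 8 h and were apart at 0 h. Usp2, a deubiquitinase gene of the clock output, had -0.53 ± 0.14 (adjusted p = 0.066) and Nr1d1, the nuclear receptor REV-ERB alpha, -0.40 ± 0.10 (adjusted p = 0.0681).

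At 0 h 4 clock genes were higher in CIE than in Ctrl mice, where 1.27% of all genes were: Ciart by 0.72, Nr1d1 by 0.40, Dbp by 0.36 and Per1 by 0.35. At 8 h 0 of the 24 were called in either direction, where 2.31% of all genes were, and those genes had effects of 0.15, 0.01, -0.21 and 0.10. In CIE mice 4 members were lower at 8 h than at 0 h, where 1.25% of all genes were: Ciart (-1.03), Dbp (-0.73), Usp2 (-0.60) and Nr1d1 (-0.37). Per2, a repressor of the clock with another daily phase, was higher by 0.47 and Arntl, which encodes the clock activator BMAL1, by 0.30. In Ctrl mice Ciart alone was called, at -0.46 (adjusted p = 0.0026).

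BMAL1 and its partner CLOCK bind the E-box, the letters CACGTG, which reads the same on both strands. It stood in the 250 bases before the start site in 5 of the 21 members with a RefSeq promoter (Bhlhe41, Ciart, Cry1, Per1 and Tef), against 6.86% of all genes. The window of Dbp held none. The Ciart promoter, which held 3, is shown, chosen after the values were seen, with each E-box in capitals.
Ciart (chr3:95882229-95882478, minus strand): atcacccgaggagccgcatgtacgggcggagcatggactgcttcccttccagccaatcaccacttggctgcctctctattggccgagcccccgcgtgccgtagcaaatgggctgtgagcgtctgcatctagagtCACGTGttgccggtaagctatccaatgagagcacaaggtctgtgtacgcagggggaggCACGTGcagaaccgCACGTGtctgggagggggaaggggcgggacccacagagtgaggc

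Manf encodes a small protein of the ER that is secreted under ER stress and protects neurons. Its log2 intensity was 10.96, 11.05 and 11.14 (lowest, median, highest) in CIE mice and 10.41, 10.59 and 10.77 in Ctrl mice at 8 h. At 0 h it was 10.49, 10.68 and 10.78 in CIE mice and 10.52, 10.62 and 10.89 in Ctrl mice. All CIE mice at 8 h lay above all other mice of the comparison, and the 0 h groups overlapped. The change was 0.46 ± 0.08 (95% interval 0.29 to 0.63; adjusted p = 0.00649), with a CIE effect of 0.47 at 8 h (adjusted p = 1.32e-06) and 0.01 at 0 h (adjusted p = 0.944). This call was the weakest but 1 of the 15 and held in 11 of the 24 fits that left out 1 mouse.

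Of 29 ER chaperones and folding enzymes Manf was the 1 called, against 0.033% of all genes. The change lay above 0 for 25 of the 29, against 39.6% of all genes, with a median of 0.10 beside -0.04. Pdia4, a disulfide isomerase, had a change of 0.47 ± 0.11 (adjusted p = 0.0448), Creld2, which is retained in the ER, 0.35 ± 0.09 (adjusted p = 0.076), Pdia3, another isomerase, 0.57 ± 0.15 (adjusted p = 0.0778), and Hspa5, the ER chaperone BiP, 0.28 ± 0.09 (adjusted p = 0.169). At 8 h 9 of the 29 were higher in CIE than in Ctrl mice (Manf, Pdia4, Creld2, Pdia3, Sdf2l1, Canx, Dnajb9, P4hb and Herpud1), where 1.65% of all genes were. At 0 h 0 of the 29 were called, where 1.64% of all genes were. The CIE effect on Pdia4 was 0.60 at 8 h and 0.13 at 0 h, and that on Sdf2l1 0.53 at 8 h and 0.12 at 0 h.

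In CIE mice 10 members were higher at 8 h than at 0 h (1.71% of all genes were), led by Sdf2l1 at 0.66, Pdia4 at 0.55 and Creld2 at 0.50. In Ctrl mice 0 were called, where 0.473% of all genes were. The 30 regulators of the unfolded protein and integrated stress responses held 0 called genes (0.033% of all genes were called), with a median change of -0.04. Outside these lists, Sec23b, a coat subunit of vesicles that leave the ER, had a change of 0.29 ± 0.06 (adjusted p = 0.0199), and Ostc, a subunit of the enzyme that attaches sugars to new proteins in the ER, 0.33 ± 0.07 (adjusted p = 0.021). For both, all CIE mice at 8 h lay above all Ctrl mice at 8 h.

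**Figure D3:**
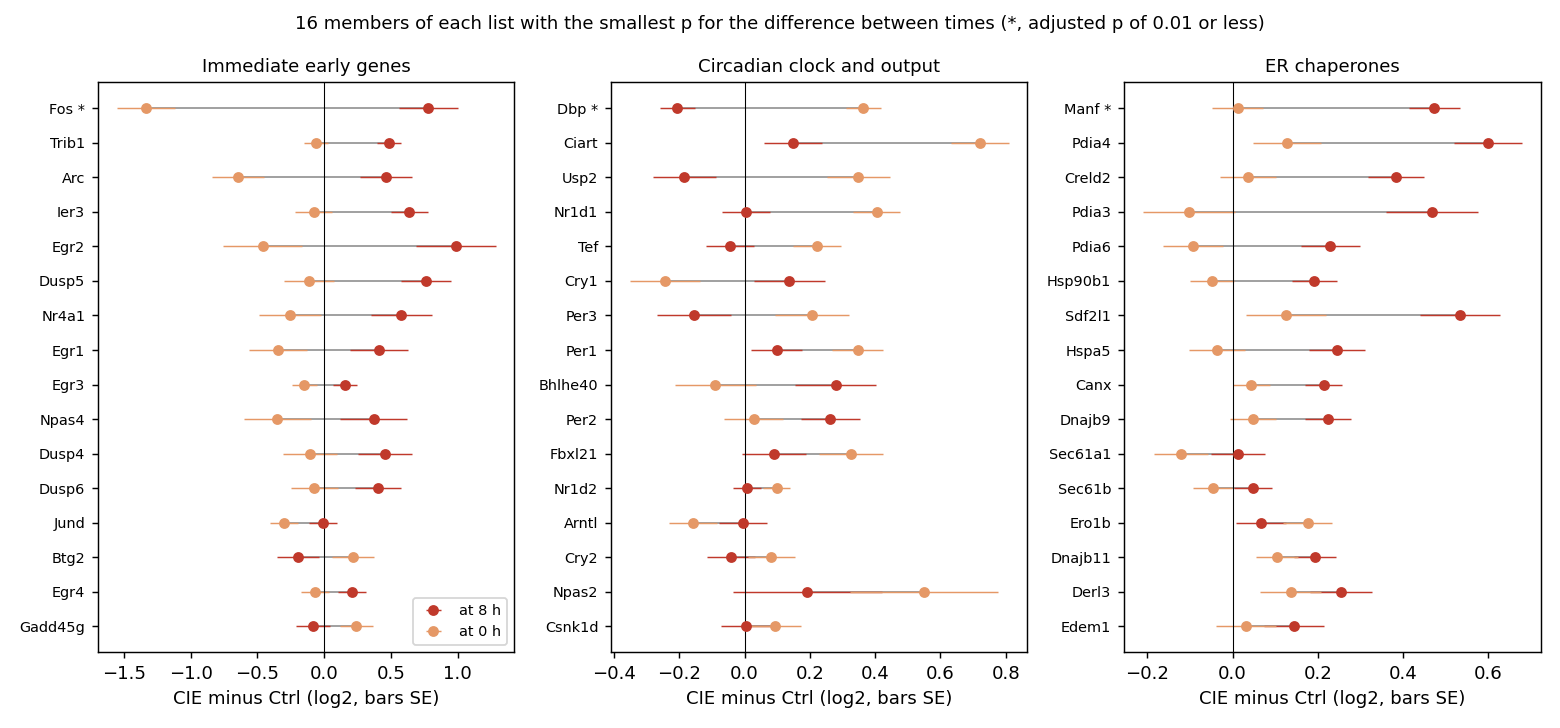
CIE minus Ctrl difference in log2 intensity at 8 h (dark red) and at 0 h (orange), with its SE, for the 16 members of 3 gene lists with the smallest p for the change. ER chaperones were near 0 at 0 h and above it at 8 h, clock output genes were above 0 at 0 h, and immediate early genes were mostly below 0 at 0 h and above it at 8 h.

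The ER stress response element, to which ATF6 with NF-Y binds, was read as CCAATNNNNNNNNNCCACG on either strand, N being any base. It stood in the 250 bases before the start site in 10 of the 25 members with a RefSeq promoter, against 0.13% of all genes. Manf itself was not among the 25. The promoters of Hspa5 and Creld2, each with 1 match and chosen after the values were seen, are shown with the match in capitals, which for Creld2 lies on the other strand. The promoter windows of Pdia4 and Pdia3 held none. These letters describe the promoters and say nothing of which factor acted in these mice.
Hspa5 (chr2:34771840-34772089, plus strand): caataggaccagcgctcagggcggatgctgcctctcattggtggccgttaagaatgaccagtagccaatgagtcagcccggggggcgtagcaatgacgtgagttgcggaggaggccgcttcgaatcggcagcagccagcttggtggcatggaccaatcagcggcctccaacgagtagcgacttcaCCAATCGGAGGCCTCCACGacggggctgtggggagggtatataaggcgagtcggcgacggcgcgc
Creld2 (chr15:88819396-88819645, plus strand): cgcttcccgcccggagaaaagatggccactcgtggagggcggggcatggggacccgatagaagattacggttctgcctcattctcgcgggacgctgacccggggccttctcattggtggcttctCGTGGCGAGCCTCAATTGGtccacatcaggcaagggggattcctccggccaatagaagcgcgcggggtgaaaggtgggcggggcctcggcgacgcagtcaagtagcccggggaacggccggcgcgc

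A further group of probe sets was higher in CIE mice at 8 h and near the Ctrl level at 0 h. Depp1, a gene switched on by FOXO factors in fasting and stress, had log2 intensities of 7.23, 7.44 and 7.51 (lowest, median, highest) in CIE mice and 6.59, 6.73 and 6.99 in Ctrl mice at 8 h. At 0 h it had 6.49, 6.67 and 6.82 in CIE mice and 6.58, 6.74 and 6.81 in Ctrl mice. The 8 h groups were apart and the 0 h groups overlapped. Its change was 0.69 ± 0.10 (adjusted p = 0.000512), and its other probe set gave 0.37 ± 0.12 (adjusted p = 0.16).

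Cdc27, which encodes a subunit of the anaphase-promoting ubiquitin ligase, had log2 intensities at probe set 1433848_at of 7.52, 7.67 and 7.72 in CIE mice and 6.69, 6.79 and 6.94 in Ctrl mice at 8 h. At 0 h they were 6.80, 6.83 and 7.13 in CIE mice and 6.67, 6.94 and 7.09 in Ctrl mice. The change was 0.85 ± 0.14 (adjusted p = 0.00185), and 3 other Cdc27 probe sets had the same sign at 0.15 to 0.28, uncalled. Pdik1l, a protein kinase gene, changed by 0.74 ± 0.13 (adjusted p = 0.00505), with 7.24, 7.34 and 7.55 in CIE mice against 6.50, 6.62 and 6.87 in Ctrl mice at 8 h. Dctn4, a subunit of the dynactin motor complex, changed by 0.88 ± 0.16 (adjusted p = 0.00649), with 7.69, 7.83 and 7.94 in CIE mice against 6.82, 7.09 and 7.21 in Ctrl mice at 8 h. For all 3 genes no CIE mouse overlapped a Ctrl mouse at 8 h, and the 0 h groups overlapped. For each of them 1 probe set was called, and the others of the same gene were not, so that the change was seen for part of the probes of the gene. Over the fits that left out 1 mouse, the call held in 24 of 24 for Cdc27, 12 for Pdik1l and 9 for Dctn4.

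Srsf3, a splicing factor of the SR family, had log2 intensities at 1416152_a_at of 10.84, 10.93 and 11.07 in CIE mice and 10.59, 10.69 and 10.80 in Ctrl mice at 8 h, without overlap. At 0 h it had 10.55, 10.60 and 10.70 in CIE mice and 10.64, 10.82 and 11.03 in Ctrl mice, with CIE lower in 34 of 36 pairs. The change was 0.45 ± 0.07 (adjusted p = 0.00185), and 5 other Srsf3 probe sets had the same sign at 0.18 to 0.56, uncalled. The list of 48 splicing factors, in which Srsf3 was represented by another probe set, held 0 called genes (0.033% of all genes were called) and had a median of 0.04.

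Pik3cd, the delta catalytic subunit of phosphoinositide 3-kinase, changed by 0.66 ± 0.12 at 1443798_at (adjusted p = 0.00448), with a CIE effect of 0.35 at 8 h and -0.31 at 0 h. Of 5 other Pik3cd probe sets none was called and 2 had the same sign, at 0.04 and 0.20, the others lying between -0.36 and -0.05. The mean log2 intensity was 12.25 at 1443798_at and 3.78 to 7.18 at the others. Whether they read the same transcript was not tested. The probe set at -0.36 had a CIE effect of 0.39 at 0 h (adjusted p = 0.0079). Without the 3 Ctrl mice of 0 h highest in thalamic markers, the change at 1443798_at was 0.49 (adjusted p = 0.107). Of the 15 probe sets 2 had no gene symbol in the annotation. Probe set 1441405_at had a CIE effect of 0.63 at 8 h and -0.41 at 0 h, a change of 1.04 ± 0.16 (adjusted p = 0.000512). Probe set 1458314_at had 0.56 at 8 h and -0.03 at 0 h, a change of 0.59 ± 0.11 (adjusted p = 0.00491).

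For the remaining called genes the CIE effect was lower at 8 h than at 0 h. R74862, named only by its sequence tag, had log2 intensities of 6.96, 7.04 and 7.20 in CIE mice and 6.97, 7.12 and 7.44 in Ctrl mice at 8 h, and 7.20, 7.46 and 7.61 in CIE mice and 6.91, 7.05 and 7.20 in Ctrl mice at 0 h. CIE mice were higher at 0 h in 35 of 36 pairs and the groups overlapped at 8 h, a change of -0.51 ± 0.09 (adjusted p = 0.00421). Rbm33, an RNA-binding protein gene, changed by -0.46 ± 0.08 (adjusted p = 0.00448), with a CIE effect of -0.21 at 8 h and 0.25 at 0 h. Of its 2 other probe sets 1 had the same sign and neither was called, and the call of Rbm33 held in 15 of the 24 fits without 1 mouse.

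The genes with the smallest p among those with an adjusted p between 0.01 and 0.05 did not pass 0.01. Those with a positive change were Tbc1d10a, a Rab GTPase-activating protein gene (0.44), Lsm12, an Lsm-type RNA-binding gene (0.44), Hax1, an antiapoptotic gene (0.37), and Mrpl21, a mitochondrial ribosomal gene (0.26). Otx2os1, a transcript opposite to Otx2, had 0.65, mainly through the Ctrl mice. Between 8 h and 0 h it moved by -0.58 in Ctrl mice and by 0.07 in CIE mice. Its mean log2 intensity was low, at 4.16, and the highest value was 5.17, in Ctrl mouse 2 at 0 h. Those with a negative change were Slc45a4, a transporter gene (-0.58), Sun2, of the inner nuclear membrane (-0.49), Cbx7, a Polycomb gene (-0.44), Sh3yl1 (-0.36), Xpo1, the main nuclear export receptor (-0.33), Ppil3, a spliceosomal cyclophilin (-0.29), and Acvr1b, an activin receptor (-0.26). For Sun2 the CIE and Ctrl mice did not overlap at either time, CIE being lower at 8 h and higher at 0 h. The adjusted p of these 12 genes lay between 0.0159 and 0.0269.

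Other lists with single members at 0.05 were heat shock proteins, hypoxia genes and the proteasome. Hspa1a, an inducible heat shock protein gene, had -0.70 ± 0.17 (adjusted p = 0.048), with a CIE effect of -0.12 at 8 h and 0.58 at 0 h, and its near-identical neighbor Hspa1b, which probes can hardly tell apart from it, -0.75 ± 0.20 (adjusted p = 0.0829). Adm, the vasodilator adrenomedullin, had 0.90 ± 0.20 (adjusted p = 0.0341), with 0.68 at 8 h and -0.22 at 0 h. Psmb2, a proteasome core subunit, had 0.26 ± 0.06 (adjusted p = 0.048). None passed 0.01.

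Several large CIE effects had no called change between the times. In the list of 36 targets of glucocorticoids, CIE mice had higher levels of 11 at 8 h, of 14 at 0 h and of 9 at both. Of all genes 1.65% were higher at 8 h and 1.27% at 0 h. In this list 0 genes had a called change in effect (0.033% of all genes had one), and the median change was -0.06. Plin4, a lipid droplet gene, had a CIE effect of 1.13 at 8 h and 1.25 at 0 h, with a 95% interval of the change of -0.51 to 0.27. Arrdc2, an arrestin-like gene, had 0.82 at 8 h and 0.81 at 0 h (-0.36 to 0.38), and Sult1a1, a sulfotransferase gene, 0.82 and 0.86 at the same times (-0.44 to 0.35). Equal effects were not shown by these intervals.

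Part of the antigen presentation and interferon genes was higher in CIE mice at each time, with wide spread. Of 16 genes of major histocompatibility complex (MHC) class I presentation 11 were higher at 8 h and 7 at 0 h, of 10 of MHC class II 6 and 3, and of 10 interferon-inducible GTPases 10 and 3, again 8 h before 0 h, where 1.65% of all genes were higher at 8 h and 1.27% at 0 h. No gene in these 3 lists had a called change in effect (0.033% of all genes had one), which does not show equal effects. H2-Aa, an MHC class II chain, came closest at 1.20 ± 0.38 (adjusted p = 0.142), with log2 intensities of 7.58, 7.93 and 8.39 in CIE mice and 4.99, 5.80 and 6.61 in Ctrl mice at 8 h, and 6.30, 6.65 and 7.36 in CIE mice and 4.73, 5.52 and 7.15 in Ctrl mice at 0 h. All 10 GTPases lay above 0, with a median of 0.39, but the median over the list in single hybridization sets ran from -1.21 to 2.33. The larger number of GTPases called at 8 h is a count, not a test of the difference.

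**Figure D4:**
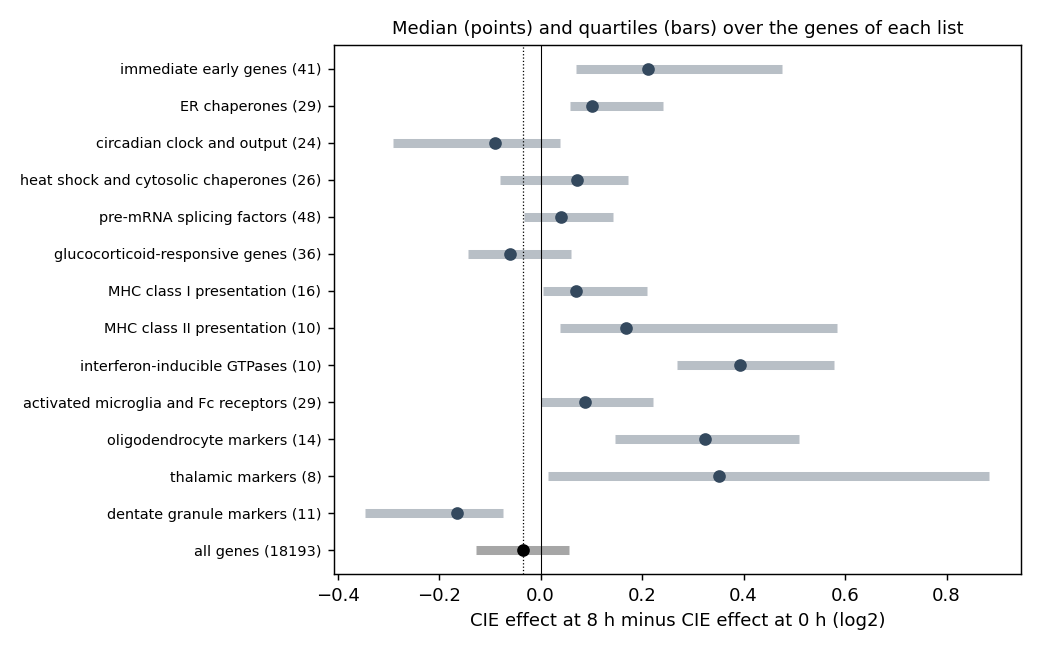
Median (point) and quartiles (bar) of the change in CIE effect (log2) over the genes of 13 lists, with the number of genes, and over all 18193 genes at the bottom, whose median of -0.04 is the dotted line. GTPases (0.39) and thalamic (0.35) and oligodendrocyte (0.32) markers lay farthest above it, beyond immediate early genes (0.21) and ER chaperones (0.10). Dentate granule markers (-0.16) lay farther below it than clock genes (-0.09). The MHC, GTPase and marker lists held 0 called genes, where 0.033% of all genes were called.

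The labels used here gave no hybridization batch. Exactly equal values shared between arrays sorted 47 of the 48 arrays into 6 sets, called hybridization sets here. That they are the authors' batches is an inference from the values and was not checked. Of the 6 sets, 5 held 1 mouse of each of the 4 groups. Computed within each of these 5 sets, the change had the sign of the whole fit in all 5 for each of the 15 probe sets. The 15 were called on these same mice, which largely fixes that agreement, so it is a description of the spread between sets and no support for the calls. For Fos the values ran from 1.37 to 2.86, for Dbp (1438211_s_at) from -0.97 to -0.30, for Homer1 from 0.72 to 1.95, and for Manf from 0.14 to 0.89. The median of the immediate early genes ran from 0.10 to 0.36 over the sets, that of the ER chaperones from 0.08 to 0.20, and that of the clock genes from -0.24 to -0.06. With the sets as a block in the fit, 5 probe sets were called in place of 15, 4 of them among the 15 (Dbp 1438211_s_at, Fos, Depp1 and 1441405_at), and Nmd3, a ribosome export factor, was the fifth. With the sets as a block and the 0 h and 8 h arrays alone, a fit added after the data were seen, 0 probe sets were called by limma, 3297 had an unadjusted p under 0.05, and the smallest adjusted p was 0.0625.

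**Figure D5:**
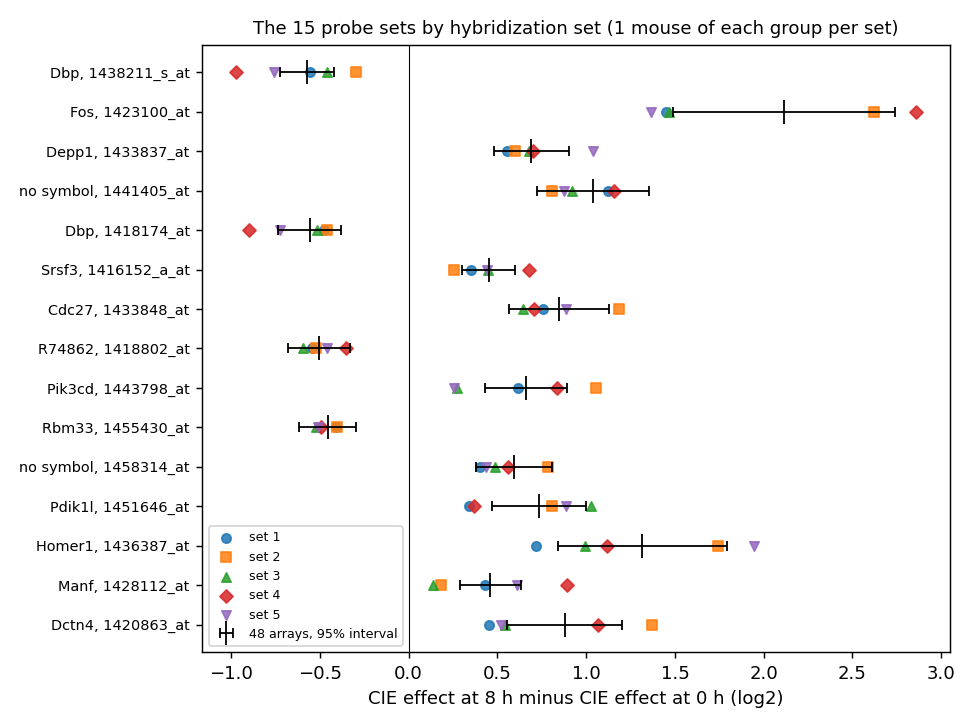
Change in CIE effect (log2) for the 15 called probe sets within each of 5 hybridization sets (symbols), inferred from shared values, each point from 4 mice. The fit over 48 arrays is in black with its 95% interval. Every symbol lies on the same side of 0 as the fit, which was made on the same mice and chose these probe sets.

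Markers of CA1 and dentate neurons were well expressed in all 24 arrays, with list means of 8.92 to 10.83 and 9.39 to 10.96, and array medians lay between 6.61 and 6.63. Of the marker lists none held a called gene, where 0.033% of all genes were called. Markers of oligodendrocytes lay above 0 in 14 of 14, with a median of 0.32, and their mean level ran from 9.22 to 9.71 in CIE mice and 9.14 to 9.74 in Ctrl mice at 8 h, and from 9.16 to 9.39 in CIE mice and 9.10 to 9.89 in Ctrl mice at 0 h. Markers of thalamus, which borders the hippocampus, had a median of 0.35 with 6 of 8 above 0. Their mean level ran from 7.39 to 7.80 in CIE mice and 7.15 to 7.86 in Ctrl mice at 8 h, and from 7.01 to 7.57 in CIE mice and 6.95 to 8.94 in Ctrl mice at 0 h, where 3 Ctrl mice (numbers 2, 12 and 20) were at 8.13 or more. Without these 3 mice 7 probe sets were called, 6 of them among the 15 (both of Dbp, Fos, Depp1, Homer1 and 1441405_at), and Manf had a change of 0.52 with an adjusted p of 0.0136. Leaving out 3 of the 6 Ctrl mice of 0 h lowers the precision too, and its part in the lost calls cannot be told apart from that of the marker level. The part of marker levels in the changes, thalamic ones included, was not tested.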

How the data were processed

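Hippocampal RNA of 48 mice was measured on 1 array per mouse. The deposited values are log2 intensities per probe set. Per the study's methods, the authors made them with RMA background correction and quantile normalization within hybridization batches, a further quantile normalization over all arrays, and ComBat adjustment for batch, which can shrink or shift differences between groups spread unevenly over batches; no source used here gave the tool versions. limma 3.58.1 (R 4.3.3) was fitted to all 48 arrays with a mean per group, and p-values were moderated (eBayes), two-sided and adjusted over 45037 probe sets by Benjamini-Hochberg, with a call at 0.01 or less. A gene was represented by its probe set of highest mean among 34945 with 1 symbol; 932 had several and 9160 none. All differences are on the log2 scale, ± is the SE of the fit, and intervals are 95%. The number of arrays, 6 per group, limits the precision. Quantile normalization makes every change relative to the other genes.

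Named genes were all called ones and, in each direction, those filling up to 10 by smallest p among genes at 0.05 or less, with called members of each list, or its 3 of smallest p. Members, lists and the promoters shown, which lie outside the rule for sequences, were chosen with earlier results of these data known, and the list members and other genes beyond these rules were named after their values were seen. The fit was tested on simulated data. Alternatives were other arrays, dim-probe filters, normalizations, variance priors, array weights, hybridization sets as a block, and leaving out each mouse. Titles gave the groups. Promoters came from RefSeq (GRCm38.p6).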

Additional observations from a re-analysis of the deposited data

Results flagged for a closer look

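The CIE effect differed between 8 h and 0 h by the direct test at 15 probe sets, with changes (8 h minus 0 h, log2) of 2.11 for Fos, 1.32 for Homer1, 0.88 for Dctn4, 0.85 for Cdc27, 0.74 for Pdik1l, 0.69 for Depp1, 0.66 for Pik3cd, 0.46 for Manf and 0.45 for Srsf3. The probe sets 1441405_at and 1458314_at, without a symbol, had 1.04 and 0.59. The changes were -0.57 and -0.56 for the 2 probe sets of Dbp, -0.51 for R74862 and -0.46 for Rbm33.

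In 2 of the 60 groups of 6 mice examined for these probe sets, 1 mouse stood apart from the other 5, where chance alone marks about 1 in 20 groups. For Cdc27, mouse 15 of the CIE group at 8 h had a log2 intensity of 7.52, the lowest, with the next at 7.65, and was still above every Ctrl mouse. For Manf, mouse 56 of the Ctrl group at 0 h had 10.9, the highest, with the next at 10.6.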

How the results depend on the processing

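Against 15 probe sets and 6 genes, the counts were 3 and 1 with only the 24 arrays of 0 h and 8 h, 5 and 2 with hybridization sets as a block, 27 and 16 among probe sets with a mean at or above the median, where fewer were tested, and 169 and 85 at an adjusted p of 0.05. In fits added after the data were seen they were 0 and 0 with the sets as a block and the 0 h and 8 h arrays only (limma; 3297 probe sets and 1336 genes had an unadjusted p under 0.05), and 7 and 2 without the 3 Ctrl mice of 0 h highest in thalamic markers. Why the counts moved was not tested, and the last fit also had fewer Ctrl mice at 0 h. Under a mean of at least 5, a second quantile normalization, centring, trend and robust variance, array weights and, for genes, the mean over probe sets, counts lay between 15 and 17 probe sets and between 5 and 7 genes.

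Leaving out 1 mouse gave 8 to 26 probe sets and 2 to 12 genes. Probe sets moved by over 1.5 times without Ctrl 0 h mouse 38 (23), Ctrl 8 h mouse 8 (9), CIE 0 h mouse 11 (26), and CIE 8 h mice 25 (8) and 69 (9). Genes did without Ctrl 0 h mice 2 (3) and 38 (11), Ctrl 8 h mouse 4 (3), CIE 0 h mice 11 (12) and 57 (2), and CIE 8 h mouse 25 (3). Both probe sets of Dbp, Fos, Depp1, Srsf3, Cdc27 and 1441405_at kept their call in all 24 such fits, R74862 and Pik3cd in 19, and Manf in 11. With only the 24 arrays of 0 h and 8 h, Dbp (1438211_s_at), Depp1 and Cdc27 alone of the 15 kept theirs, and Fos did not (adjusted p = 0.0198). None of the 15 called changes reversed its sign in any fit run. These fits used the mice that gave the calls, which largely fixes the sign, so this is a description. No paired analysis was possible because the groups share no mouse numbers in the labels; the hybridization sets, found from the values, were fitted as a block instead. With 6 arrays a group the median SE was 0.12, and changes well above that size could be missed. The smallest of the 15 called changes was 0.45 in size, for Srsf3.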

Other observations

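Among 35 chemokines and cytokines, CIE mice had higher levels of 6 at 8 h and of 1 at 0 h. Of all genes 1.65% were higher at 8 h and 1.27% at 0 h. Of the 35, 0 had a called change in effect (0.033% of all genes had one), and the median change was 0.08. Ccl4 and Ccl3, which attract leukocytes, had changes of 0.39 ± 0.11 (limma adjusted p = 0.0986) and 0.52 ± 0.18 (adjusted p = 0.182). Cxcl10, an interferon-induced chemokine, had 0.81 ± 0.26 (adjusted p = 0.15), with a CIE effect of 1.38 at 8 h and 0.57 at 0 h. Of 29 genes of activated microglia and Fc receptors 14 were higher in CIE mice at 8 h and 5 were at 0 h. The shares of all genes were the same 1.65% and 1.27%. Of the 29, 0 had a called change in effect, against the same 0.033% of all genes. Cd68, a lysosomal protein of phagocytes, had the smallest p among them, with 0.42 ± 0.15 (adjusted p = 0.205).

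Of 3 lists of synaptic transmission genes, none held a called change, where 0.033% of all genes were called. These lists did not include Homer1, whose probe set 1436387_at was called. The 16 GABA-A receptor subunits had a median of -0.01, the 22 ionotropic glutamate receptor genes 0.00 and the 24 genes of vesicles and release -0.07, with 6 of the 24 above 0. Vgf, which encodes a secreted neuropeptide precursor, had a change of 0.69 ± 0.23 (adjusted p = 0.187) and was higher in CIE mice at 8 h than at 0 h by 0.86. Vegfa, the main angiogenic factor, had a change of 0.39 ± 0.12 (adjusted p = 0.129), with a CIE effect of -0.03 at 8 h and -0.42 at 0 h. The 17 genes that metabolize alcohol, aldehyde and acetate had a median change of 0.03 and 0 calls.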
